A study of Mus musculus with 4 samples.

Results

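TGF-beta, BMP and activin signalling was described through 48 genes, listed by name for their known roles. They fall into 9 functional classes that run from ligands through latent binding proteins, antagonists and receptors to Smads and Smad-induced targets. Transcript counts were summed per gene, and 45 of the 48 genes were among the 14185 genes with enough counts to be tested, of 35580 genes in all. The comparison set Mmp3-positive against Mmp3-negative cells, both from the stromal vascular fraction (SVF) of subcutaneous adipose tissue of WT C57BL/6 mice. SVF is what remains of dissociated fat once the adipocytes are removed, and Mmp3 encodes the secreted matrix metalloproteinase stromelysin-1. Each group had 2 libraries of strand-specific, rRNA-depleted RNA-seq, and the RNA was extracted with a kit for formalin-fixed, paraffin-embedded material. No label ties a library to an animal, so p-values measure the spread between these libraries, which may be technical, and the labels give only a reagent code on how the cells were separated.

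TGF-beta, BMP and activin ligands are secreted dimers that assemble type I and type II receptor kinases on the cell surface. The activated receptors phosphorylate receptor-activated Smads, which join the common Smad4 and regulate genes in the nucleus. TGF-beta and activins signal mainly through Smad2 and Smad3, BMPs mainly through Smad1, Smad5 and Smad9, and Smad6 and Smad7 damp the pathway. TGF-beta is stored in the matrix in a latent complex with its binding proteins. In adipose tissue, TGF-beta and activin A are known to restrain the differentiation of progenitors and to favour matrix production, whereas BMPs are known to promote commitment to the adipocyte lineage.

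The bases before the start site are shown for 4 of the 7 TGF-beta ligand and receptor genes whose CPM did not overlap between the groups, since these 2 classes lay on opposite sides of the comparison described below. Each window holds 250 bases ending at the RefSeq start site on GRCm38.p6, 5′ to 3′ on the strand of the gene, and was kept only where it lay outside the annotated span of its gene. RefSeq promoters were matched for 35 of the 48 genes, which leaves Tgfb3, Tgfbr3 and Acvrl1 named only. Capitals mark the letters CAGAC or the reverse complement GTCTG, a short form of the Smad-binding element, and the palindrome GGCGCC, a motif described for Smad1 and Smad5. Both strands were searched, and no 2 matches shared a base in these windows.
Tgfb1: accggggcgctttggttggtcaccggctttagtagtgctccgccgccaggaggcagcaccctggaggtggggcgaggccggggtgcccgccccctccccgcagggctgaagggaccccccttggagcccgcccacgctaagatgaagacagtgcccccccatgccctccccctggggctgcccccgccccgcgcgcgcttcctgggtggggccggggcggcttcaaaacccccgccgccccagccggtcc
Tgfb2: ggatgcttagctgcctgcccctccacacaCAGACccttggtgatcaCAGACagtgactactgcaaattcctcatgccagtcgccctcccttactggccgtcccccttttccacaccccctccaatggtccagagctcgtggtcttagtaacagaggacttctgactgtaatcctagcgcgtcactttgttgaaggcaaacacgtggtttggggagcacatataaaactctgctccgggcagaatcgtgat
Tgfbr1: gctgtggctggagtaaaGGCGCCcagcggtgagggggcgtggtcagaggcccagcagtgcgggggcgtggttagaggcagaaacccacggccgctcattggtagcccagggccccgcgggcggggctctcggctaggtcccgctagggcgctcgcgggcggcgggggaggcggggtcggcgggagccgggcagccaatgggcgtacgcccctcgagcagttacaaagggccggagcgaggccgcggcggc
Tgfbr2: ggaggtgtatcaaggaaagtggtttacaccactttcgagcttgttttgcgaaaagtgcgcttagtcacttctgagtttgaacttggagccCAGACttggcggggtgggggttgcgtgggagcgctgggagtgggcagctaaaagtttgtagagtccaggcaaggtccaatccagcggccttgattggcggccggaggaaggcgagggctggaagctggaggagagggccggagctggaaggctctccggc
These windows lie at chr7:25686752-25687001 on the plus strand (Tgfb1), chr1:186705990-186706239 on the minus strand (Tgfb2), chr4:47352972-47353221 on the plus strand (Tgfbr1) and chr9:116175364-116175613 on the minus strand (Tgfbr2). The Tgfb2 window held 2 matches to the Smad box, which began 204 and 221 bases before the start site. The Tgfbr2 window held 1 such match, 160 bases before the start site. The Tgfbr1 window held 1 match to the palindrome, 233 bases before the start site, and the Tgfb1 window held neither motif. CAGAC or GTCTG occurred in 42.2% of 32851 RefSeq windows of the same length, and GGCGCC in 9.59%. A match is a description of the letters and was not tested as a binding site.

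Mmp3 itself checked the labels. It stood at 4161 and 3409 CPM (read counts put on one library-size scale with TMM) in the Mmp3-positive libraries, against 106 and 131 CPM in the Mmp3-negative libraries, a log2 fold change of 4.999 ± 0.21 (edgeR adjusted p = 0.00793; ± after a log2 fold change is its standard error throughout). The libraries held between 17693755 and 20286221 estimated counts. Median absolute log2 differences between the 2 libraries of a group were 0.479 in Mmp3-positive and 0.76 in Mmp3-negative cells over all genes tested, and 0.204 in Mmp3-positive and 0.516 in Mmp3-negative cells over the 45 pathway genes. Stromal fibroblast markers were abundant in all libraries, with a summed level of 18662 and 25579 CPM in Mmp3-positive libraries against 15210 and 22872 CPM in Mmp3-negative libraries. Of these 10 markers 6 were higher without overlap and none lower, with a median log2 fold change of 0.425, beside 0.02 over all genes. Pdgfra, the receptor of platelet-derived growth factor found on adipose progenitors, had 1657 and 1687 CPM in Mmp3-positive libraries, against 929 and 1063 CPM in Mmp3-negative libraries. Its adjusted p was 0.4801 by edgeR and 9.833e-08 by DESeq2, so the call depended on the tool. Summed levels of endothelial, mural and immune markers were lower in the Mmp3-positive libraries, and those of adipocytes, mesothelium and Schwann cells summed to at most 22.5 CPM per list in any library. The 12 endothelial markers summed to 109 and 102 CPM in Mmp3-positive libraries, against 298 and 195 CPM in Mmp3-negative libraries, and 6 of 9 tested were lower without overlap and 3 overlapped. Cldn5 was at 0 in both Mmp3-positive libraries, and 2 markers of the list were at 0 in both Mmp3-negative libraries. For the 12 mural markers the sums were 112 and 108 CPM in Mmp3-positive libraries, against 855 and 787 CPM in Mmp3-negative libraries, with Lmod1 at 0 in both Mmp3-positive libraries, and 9 of 12 were lower without overlap. The 10 macrophage and leukocyte markers summed to 34.3 and 33.2 CPM in Mmp3-positive libraries, against 190 and 164 CPM in Mmp3-negative libraries. Of these, 9 were tested, with 5 lower without overlap and none higher. Adgre1 and Laptm5 were at 0 in both Mmp3-positive libraries, and 1 marker of the list was at 0 in both Mmp3-negative libraries. Immediate early and heat shock genes, which also respond to the handling of cells, summed to 3014 and 3050 CPM in Mmp3-positive libraries, against 8687 and 8313 CPM in Mmp3-negative libraries, and 9 of 10 were lower without overlap. For comparison, 22.5% of all genes tested were higher and 17.3% lower without overlap in CPM. The part of these markers in the results below was not tested.

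No pathway gene differed beyond the spread between libraries in the main test. In CPM the ligands TGF-beta 1, 2 and 3 and BMP6 had lower levels in both Mmp3-positive libraries than in either Mmp3-negative library. The TGF-beta receptors Tgfbr1, Tgfbr2, Tgfbr3 and Acvrl1, the protease Bmp1, the inhibitory Smad7 and the target Id1 had higher levels. Lower levels of this kind were seen for 17.3% of all genes tested, and higher ones for 22.5%. In TPM the TGF-beta ligands and Tgfbr1 overlapped between the groups. In CPM over protein-coding transcripts alone, Tgfb2, Tgfbr3 and Acvrl1 overlapped. With edgeR's quasi-likelihood test, 0 of 45 pathway genes passed an adjusted p of 0.05 in either direction, and the smallest adjusted p was 0.4801, for Bmp6. Over all genes the same test called 1 gene higher (0.00705%), Mmp3 itself, and 2 lower (0.0141%), both on the immediate early and heat shock list. At an unadjusted p under 0.05 edgeR gave 4 pathway genes, Bmp1, Bmp6, Ltbp2 and Tgfbr3, and 1258 genes in all, 8.87% of those tested. DESeq2's Wald test called Bmp1 and Tgfbr3 higher and Bmp6 lower, 4.44% and 2.22% of the 45, against 5.46% and 4.18% of all genes. The DESeq2 shares of the 45 genes were not above those of all genes.

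In TMM-normalised CPM, 12 of 45 pathway genes (26.7%) were higher in both Mmp3-positive libraries than in either Mmp3-negative library, against 22.5% of all genes tested. A further 7 (15.6%) were lower without overlap, against 17.3% of all genes, and for 26 the groups overlapped. With a fitted change of at least 2-fold as well, 2 genes were higher (Tgfbr1 and Smad9) and 2 lower (Tgfb3 and Id4), 4.44% each way against 11.2% and 9.54% of all genes. In CPM the share higher without overlap was above that of all genes, and the other 3 shares were below it. By TPM, 12 pathway genes (26.7%) were higher and 5 (11.1%) lower without overlap, against 25.9% and 10.9% of all genes. Which genes these were depended on the scale for 14 of the 45. Tgfb1, Tgfb2, Tgfb3, Ltbp2, Ltbp4, Tgfbr1, Smad1 and Id4 were free of overlap in CPM but not in TPM. In TPM alone, Inhba and Smad6 were higher and Chrd, Acvr2b, Smad3 and Tgfbi lower without overlap. The median log2 fold change of the pathway genes was 0.03, beside 0.02 over all genes, with 25 values above 0 and 20 below it. With 2 libraries in each group, an exact permutation test of a single gene cannot give a two-sided p below 0.333.

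**Figure D1:**
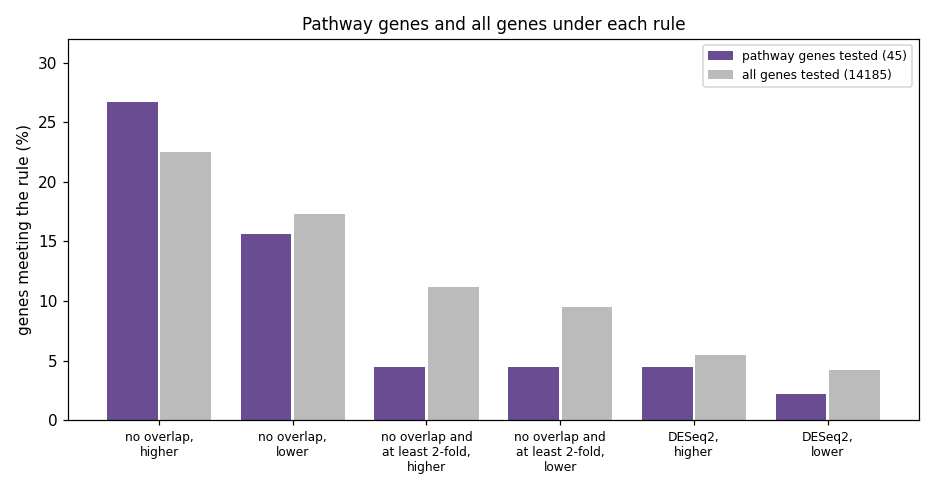
Share of genes meeting each rule, in percent, for the 45 pathway genes tested (purple bars) and all 14185 genes tested (grey bars). The purple bars stand at 26.7% and 15.6% for levels without overlap, beside 22.5% and 17.3% in grey, and below the grey bars under the other 4 rules.

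For the depth behind these values, 17 of the 48 genes averaged at least 100 CPM over the 4 libraries, 21 averaged 10 to 100 CPM and 10 averaged less. Per length, in TPM (abundance scaled by transcript length), the most abundant were Tgfbr3, at a mean of 475 ± 48.5 TPM in Mmp3-positive and 335 ± 89.6 TPM in Mmp3-negative cells (SD, n = 2 each), and Id3, at 453 ± 30.8 TPM in Mmp3-positive and 460 ± 222 TPM in Mmp3-negative cells. The TPM of these 2 neighbours overlapped in both groups. Id1, Fstl1, Smad7, Fst and Bmp1 followed. BMP ligands other than Bmp6, the secreted BMP antagonists Nog, Grem1 and Chrd, and the BMP-specific Smad9 stood at the low end, each with a mean under 5 TPM in both groups. Summed over all 48 genes, TPM came to 3540 and 3198 in Mmp3-positive libraries, against 1956 and 3407 in Mmp3-negative libraries, so Mmp3-negative replicate 1 was lowest.

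**Figure D2:**
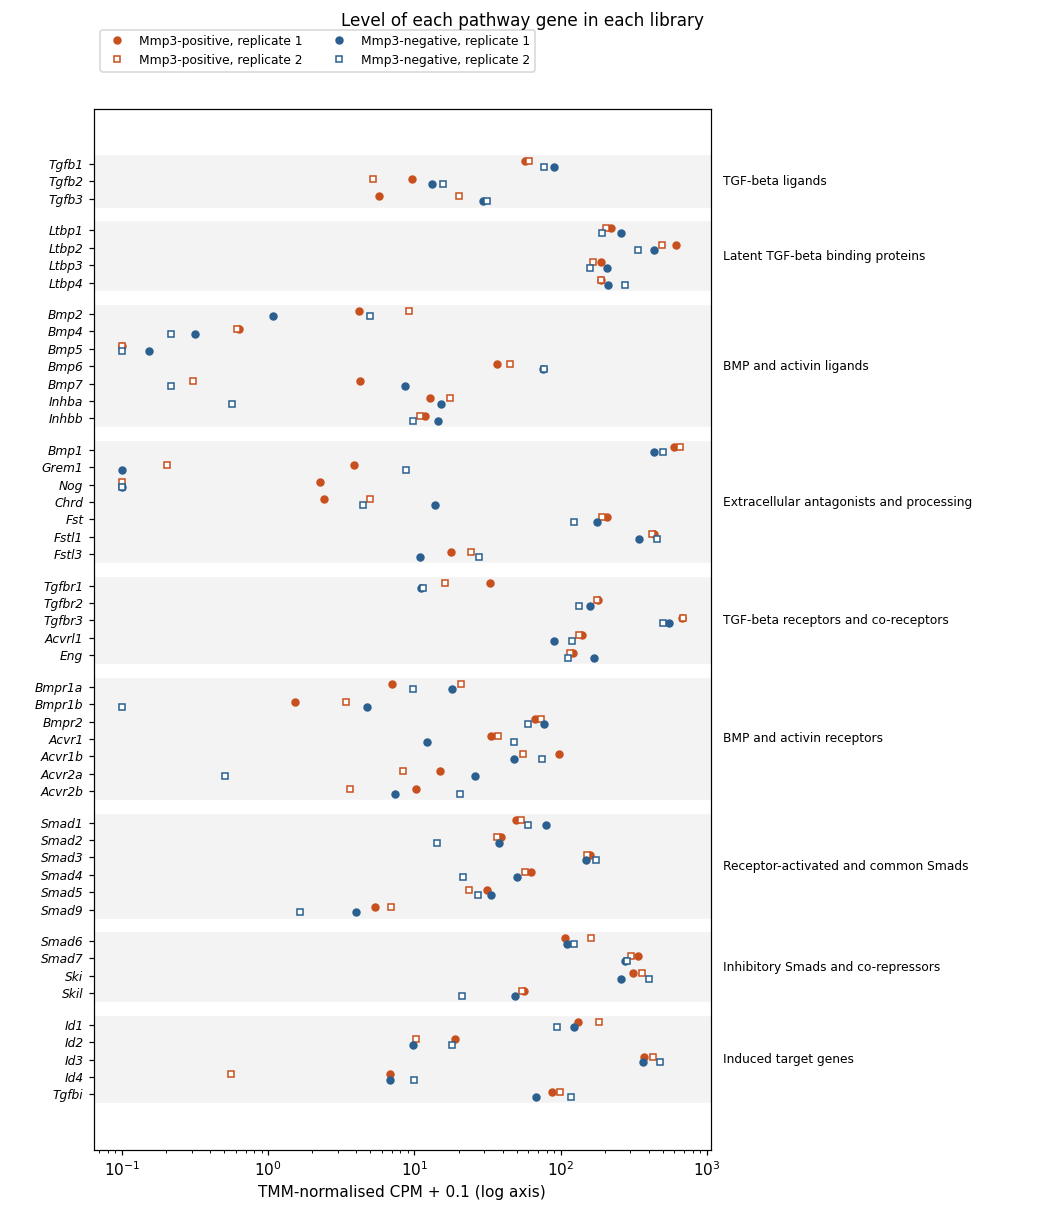
TMM-normalised CPM plus 0.1 on a log axis for each of the 48 pathway genes by functional class, with 1 point per library (orange Mmp3-positive, blue Mmp3-negative; filled circle replicate 1, open square replicate 2). Abundant genes have tight points, while Bmp7, Grem1, Inhba, Acvr2a and Bmpr1b differ by at least 10-fold between the Mmp3-negative replicates.

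The 3 TGF-beta ligand genes all had lower levels in Mmp3-positive cells, without overlap in CPM and without passing the test. Of all genes tested, 17.3% were lower without overlap in CPM. Tgfb1 encodes the most widely expressed isoform, on chromosome 7 of GRCm38 from 25687002 to 25705077. It had 56.7 and 60.6 CPM in the Mmp3-positive libraries, against 89.3 and 77.0 CPM in the Mmp3-negative libraries. The replicates lay close together, and the log2 fold change was -0.50 with a standard error of 0.26 (edgeR adjusted p = 0.7318). Tgfb2, an isoform held like the others in a latent complex, had 9.47 and 5.09 CPM in Mmp3-positive libraries, against 13.2 and 15.6 CPM in Mmp3-negative libraries (log2 fold change -0.98 ± 1.06). All 270 estimated counts of Tgfb2 in Mmp3-negative replicate 2 lay on a retained-intron model, Tgfb2-205. On coding models Tgfb2 had 9.10 and 4.07 CPM in Mmp3-positive libraries, against 13.2 and 0 CPM in Mmp3-negative libraries, which overlap, and the log2 fold change over coding models was -0.044. Tgfb3 had 5.63 and 20.1 CPM in Mmp3-positive libraries, against 29.3 and 31.2 CPM in Mmp3-negative libraries, and its log2 fold change of -1.24 had a standard error of 0.79 (edgeR adjusted p = 0.8531). Its log2 fold change was -0.59 without Mmp3-positive replicate 1 and -2.43 without Mmp3-positive replicate 2. The 2 Mmp3-positive libraries differed from each other by more than the groups did for this gene, which overlaps Ttll5 on the opposite strand. In TPM none of the 3 ligands was free of overlap: Tgfb1 had 36.5 and 34.6 TPM in Mmp3-positive libraries, against 33.1 and 49.0 TPM in Mmp3-negative libraries. In a bulk sample, fewer cells of a type and less RNA per cell cannot be told apart.

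The latent TGF-beta binding proteins tether the latent ligand to fibrillin-rich matrix, and all 4 genes had at least 159 CPM in every library. Ltbp2, which binds fibrillin but is known not to carry latent TGF-beta, had 611 and 493 CPM in Mmp3-positive libraries, against 431 and 339 CPM in Mmp3-negative libraries. Its groups did not overlap, and its log2 fold change was 0.52 with a standard error of 0.20 (edgeR adjusted p = 0.5185; DESeq2 adjusted p = 0.0741). Ltbp4 had 188.1 and 189 CPM in Mmp3-positive libraries, against 209 and 274 CPM in Mmp3-negative libraries (log2 fold change -0.36 ± 0.20). Ltbp1 overlapped, with 222 and 204 CPM in Mmp3-positive libraries, against 258 and 192 CPM in Mmp3-negative libraries. Ltbp3 overlapped too, with a log2 fold change of -0.04. In TPM all 4 overlapped.

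Of the 5 BMP and activin ligands tested, Bmp6 was the one whose CPM did not overlap between the groups, with lower levels in Mmp3-positive cells. The same held for 17.3% of all genes tested. BMP6 is a BMP of the BMP5, BMP6 and BMP7 subgroup, known in the liver as a regulator of iron balance. Its gene, on chromosome 13 from 38345107 to 38500302, had 36.8 and 44.7 CPM in Mmp3-positive libraries, against 75.5 and 76.5 CPM in Mmp3-negative libraries. Both Mmp3-positive libraries were well below the Mmp3-negative pair, a log2 fold change of -0.90 with a standard error of 0.30, or 1.87-fold lower. The adjusted p was 0.4801 with edgeR and 0.00575 with DESeq2, so the call depended on the tool. In TPM the groups also stayed apart, at 37.1 and 22.9 TPM in Mmp3-positive libraries, against 41.6 and 40.2 TPM in Mmp3-negative libraries. The coding model Bmp6-201 alone overlapped, at 9.85 and 13.9 TPM in Mmp3-positive libraries, against 12.3 and 27.6 TPM in Mmp3-negative libraries. A processed transcript, Bmp6-203, held 27.3 TPM in Mmp3-positive replicate 1 and 29.3 TPM in Mmp3-negative replicate 1. In CPM on coding models the groups stayed apart, at 26.1 and 43.9 in Mmp3-positive libraries, against 56.1 and 71.8 in Mmp3-negative libraries. Bmp6 overlaps Txndc5 on the opposite strand, and the strand setting of the counting is not given in the sources used here.

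Other ligands of that class were low. Inhba, the activin A subunit, had 12.7 and 17.3 CPM in Mmp3-positive libraries, against 15.2 and 0.46 CPM in Mmp3-negative libraries. Its log2 fold change of 0.94 rested on Mmp3-negative replicate 2 and was -0.01 without that library. In TPM Inhba did not overlap, at 9.38 and 14.5 TPM in Mmp3-positive libraries, against 5.82 and 0.098 TPM in Mmp3-negative libraries. Inhbb, the activin B subunit, had 11.8 and 10.7 CPM in Mmp3-positive libraries, against 14.3 and 9.63 CPM in Mmp3-negative libraries. Bmp2, a potent osteogenic ligand, had 4.11 and 9.01 CPM in Mmp3-positive libraries, against 0.97 and 4.90 CPM in Mmp3-negative libraries, with overlap. Bmp7 had 4.16 and 0.20 CPM in Mmp3-positive libraries, against 8.52 and 0.12 CPM in Mmp3-negative libraries, so in both groups replicate 1 held nearly all of it. Bmp4, a ligand known to commit progenitors to the adipocyte lineage, had 0.526 and 0.509 CPM in Mmp3-positive libraries, against 0.216 and 0.115 CPM in Mmp3-negative libraries. These Bmp4 levels rest on 10 counts in each Mmp3-positive library, against 4 and 2 counts in Mmp3-negative libraries, and the gene was not tested. Bmp5 had 1 estimated count in Mmp3-negative replicate 1 and 0 in the other 3 libraries, where a count of 0 allows up to 3 counts.

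Of the 7 extracellular antagonists and processing enzymes, Bmp1 and Fst had higher CPM in Mmp3-positive cells without overlap. The same held for 22.5% of all genes tested. Bmp1 encodes a metalloproteinase that cleaves procollagens, the BMP antagonist chordin and latent TGF-beta binding protein 1, and despite its name it is no BMP ligand. The gene (ENSMUSG00000022098) lies on chromosome 14 from 70474558 to 70520234. It had 591 and 654 CPM in Mmp3-positive libraries, against 434 and 498 CPM in Mmp3-negative libraries, a fold of 1.34. Its log2 fold change was 0.42 with a standard error of 0.16, with an adjusted p of 0.5143 by edgeR and 0.0449 by DESeq2. The groups were separate in TPM as well, at 199 and 188 TPM in Mmp3-positive libraries against 84.2 and 169 TPM in Mmp3-negative libraries. Fst encodes follistatin, which binds and neutralises activins. It had 208 and 191 CPM in Mmp3-positive libraries, against 177 and 123 CPM in Mmp3-negative libraries (log2 fold change 0.41 ± 0.24, edgeR adjusted p = 0.8027). On coding models Fst overlapped, at 177 and 116 CPM in Mmp3-positive libraries, against 167 and 99.0 CPM in Mmp3-negative libraries. Its log2 fold change over coding models was 0.10. Fstl1, a secreted follistatin-like glycoprotein, overlapped between the groups at 432 and 423 CPM in Mmp3-positive libraries, against 344 and 454 CPM in Mmp3-negative libraries.

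The remaining antagonists were low. Fstl3, a second activin-binding follistatin family member, had 17.8 and 24.3 CPM in Mmp3-positive libraries, against 10.8 and 27.7 CPM in Mmp3-negative libraries. Chrd, the gene of chordin, had 2.32 and 4.89 CPM in Mmp3-positive libraries, against 13.6 and 4.32 CPM in Mmp3-negative libraries, with overlap in CPM. Gremlin 1, from Grem1, had 3.74 and 0.10 CPM in Mmp3-positive libraries, against 0 and 8.59 CPM in Mmp3-negative libraries, so 1 library of each group held it. Nog, the gene of noggin, had 2.16 CPM in Mmp3-positive replicate 1 and 0 counts in the other 3 libraries, where a count of 0 allows up to 0.153 CPM in Mmp3-positive replicate 2 and 0.162 and 0.173 CPM in the Mmp3-negative libraries. It was not tested.

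TGF-beta receptors and co-receptors had a median log2 fold change of 0.37, beside 0.02 over all genes. In Mmp3-positive cells 4 of the 5 genes were higher without overlap in CPM, as were 22.5% of all genes tested. Tgfbr3, or betaglycan, is a co-receptor that presents TGF-beta 2 and inhibin, with its gene (ENSMUSG00000029287) on chromosome 5 from 107106570 to 107289629. It had 675 and 681 CPM in Mmp3-positive libraries, against 549 and 501 CPM in Mmp3-negative libraries, a fold of 1.29. The log2 fold change was 0.37 with a standard error of 0.15, and the adjusted p was 0.5362 by edgeR and 0.0292 by DESeq2. Over protein-coding transcripts alone the log2 fold change was -0.27. There Tgfbr3 overlapped, at 61.5 and 70.0 CPM in Mmp3-positive libraries, against 48.8 and 106 CPM in Mmp3-negative libraries. Tgfbr2, the type II receptor that binds TGF-beta, had 180 and 177 CPM in Mmp3-positive libraries, against 159 and 134 CPM in Mmp3-negative libraries (log2 fold change 0.28 ± 0.20, edgeR adjusted p = 0.8873). Tgfbr1, the type I receptor kinase also called ALK5, had 32.8 and 16.1 CPM in Mmp3-positive libraries, against 10.95 and 11.4 CPM in Mmp3-negative libraries. It had the greatest fitted change of the class, 2.19-fold, but the Mmp3-positive replicates differed about as much from each other, and the log2 fold change of 1.13 had a standard error of 0.75 (edgeR adjusted p = 0.8680). Without Mmp3-positive replicate 1 it was 0.53.

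Acvrl1 and Eng encode the type I receptor ALK1 and its co-receptor endoglin, a pair known for their role in endothelial cells, and they did not go together. Acvrl1 had 140 and 134 CPM in Mmp3-positive libraries, against 89.2 and 120 CPM in Mmp3-negative libraries (log2 fold change 0.39 ± 0.24). On coding models Acvrl1 overlapped, at 119.7 and 126.8 CPM in Mmp3-positive libraries, against 88.2 and 119.8 CPM in Mmp3-negative libraries. Eng overlapped, with 121 and 116 CPM in Mmp3-positive libraries, against 169 and 112 CPM in Mmp3-negative libraries (log2 fold change -0.24 ± 0.27). Of the endothelial markers, the most abundant was Pecam1, which had 81.7 and 58.7 CPM in Mmp3-positive libraries, against 130 and 107 CPM in Mmp3-negative libraries. Cdh5, Tek and Esam of that list overlapped, Cdh5 at 2.79 and 10.2 CPM in Mmp3-positive libraries, against 9.49 and 0 CPM in Mmp3-negative libraries. Emcn and Robo4, which were not tested, had counts in 1 Mmp3-positive library each and in no Mmp3-negative library. The part of endothelial cells in the levels of Acvrl1 and Eng was not tested. Tgfbr2, Tgfbr3 and Acvrl1 were free of overlap in TPM as well.

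**Figure D3:**
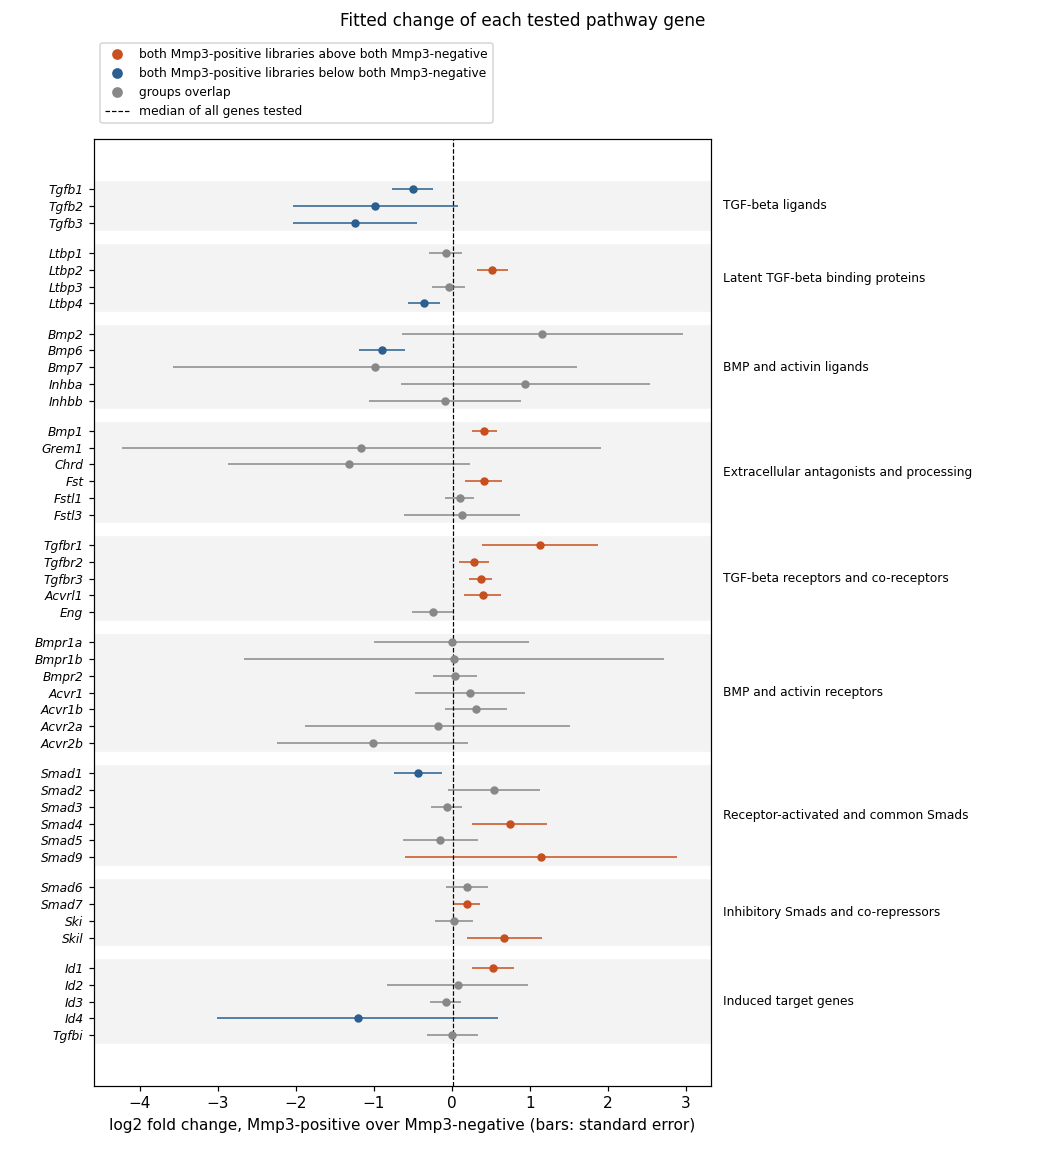
Fitted log2 fold change, Mmp3-positive over Mmp3-negative, with its standard error (bars) for the 45 pathway genes tested, by class, orange where both Mmp3-positive libraries lay above both Mmp3-negative ones, blue where below and grey where the groups overlapped. The 3 TGF-beta ligands lie left of the dashed median of all genes (0.02), 4 of 5 TGF-beta receptors lie right of it, and all 7 BMP and activin receptors are grey, since the colours go by CPM.

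For the 7 BMP and activin receptors the groups overlapped in CPM without exception, and the class median was 0.03. Over all genes tested, 22.5% were higher and 17.3% lower without overlap, and the rest overlapped. Bmpr2, the type II receptor of BMPs, had 66.3 and 73.3 CPM in Mmp3-positive libraries, against 76.2 and 59.8 CPM in Mmp3-negative libraries. Acvr1b, the activin type I receptor ALK4, had 96.8 and 55.2 CPM in Mmp3-positive libraries, against 48.2 and 74.2 CPM in Mmp3-negative libraries. Acvr1, the type I receptor ALK2, had 33.5 and 37.1 CPM in Mmp3-positive libraries, against 12.1 and 48.0 CPM in Mmp3-negative libraries, and the spread in Mmp3-negative cells covered the Mmp3-positive pair. Bmpr1a and Bmpr1b, type I receptors of BMPs, had log2 fold changes of -0.002 and 0.03 with standard errors of 0.99 and 2.69. The activin type II receptors Acvr2a and Acvr2b had log2 fold changes of -0.18 and -1.02 with standard errors of 1.70 and 1.22. In TPM Acvr2b was lower without overlap, at 4.39 and 2.56 TPM in Mmp3-positive libraries, against 10.4 and 17.3 TPM in Mmp3-negative libraries. In Mmp3-negative replicate 1, a retained-intron model, Acvr2b-206, held 9.54 TPM of this. The coding model Acvr2b-201 held 0.896 TPM there, below both Mmp3-positive values. Acvr2a had 14.8 and 8.30 CPM in Mmp3-positive libraries, against 25.8 and 0.40 CPM in Mmp3-negative libraries, and overlaps Orc4 on the opposite strand. Standard errors of this size leave large differences undetectable at this depth and number of libraries.

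Smads of both arms were detected in all libraries, and 3 of the 6 genes of this class overlapped between the groups in CPM. Among all genes tested, 22.5% were higher and 17.3% lower without overlap. Smad3, which carries TGF-beta and activin signals, had 158 and 152 CPM in Mmp3-positive libraries, against 149 and 175 CPM in Mmp3-negative libraries (log2 fold change -0.06 ± 0.20). In TPM Smad3 was lower without overlap, at 76.4 and 88.9 TPM in Mmp3-positive libraries, against 98.1 and 114 TPM in Mmp3-negative libraries. Smad2, its partner, had 38.8 and 36.8 CPM in Mmp3-positive libraries, against 37.9 and 14.1 CPM in Mmp3-negative libraries, with overlap. Smad1, a BMP-activated Smad, had 49.4 and 53.1 CPM in Mmp3-positive libraries, against 79.1 and 59.3 CPM in Mmp3-negative libraries, lower without overlap (log2 fold change -0.43 ± 0.30). Of the other BMP-activated Smads, Smad5 overlapped at 31.3 and 23.4 CPM in Mmp3-positive libraries, against 33.3 and 27.3 CPM in Mmp3-negative libraries. Smad9 was scarce, at 5.26 and 6.77 CPM in Mmp3-positive libraries against 3.88 and 1.56 CPM in Mmp3-negative libraries. Its log2 fold change of 1.14 had a standard error of 1.74. The Smad9 value was 1.94 without Mmp3-negative replicate 1 and 0.63 without Mmp3-negative replicate 2. Smad4, the common partner, had 62.6 and 57.1 CPM in Mmp3-positive libraries, against 50.3 and 21.3 CPM in Mmp3-negative libraries (log2 fold change 0.74 ± 0.48, edgeR adjusted p = 0.8546). Without Mmp3-negative replicate 1 the Smad4 value was 1.48, and 0.25 without Mmp3-negative replicate 2.

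Inhibitory Smads and co-repressors are themselves induced by or recruited to the pathway, and the 4 genes had log2 fold changes from 0.03 to 0.67, the lowest of them (Ski) turning to -0.016 with DESeq2 size factors. Smad7, which turns receptors over and is induced by TGF-beta, had 339.7 and 303 CPM in Mmp3-positive libraries, against 274 and 286 CPM in Mmp3-negative libraries (log2 fold change 0.20 ± 0.16, edgeR adjusted p = 0.9319). In TPM it had 241 and 214 in Mmp3-positive libraries, against 125 and 133 in Mmp3-negative libraries, again without overlap. Smad6, which inhibits mainly BMP signals, had 107 and 160 CPM in Mmp3-positive libraries, against 109.9 and 123 CPM in Mmp3-negative libraries, with overlap. In TPM it was higher without overlap, at 83.0 and 91.8 TPM in Mmp3-positive libraries, against 42.4 and 57.9 TPM in Mmp3-negative libraries. The coding model Smad6-201 alone overlapped, at 45.9 and 63.3 TPM in Mmp3-positive libraries, against 28.2 and 57.9 TPM in Mmp3-negative libraries. A processed transcript, Smad6-202, had 37.0 and 28.5 TPM in Mmp3-positive libraries, against 14.15 and 0 TPM in Mmp3-negative libraries. Skil, a Smad co-repressor also called SnoN, had 56.1 and 54.2 CPM in Mmp3-positive libraries, against 48.3 and 20.9 CPM in Mmp3-negative libraries, higher without overlap (log2 fold change 0.67 ± 0.48). Ski, the related co-repressor, overlapped at 312 and 359.7 CPM in Mmp3-positive libraries, against 260.1 and 399 CPM in Mmp3-negative libraries.

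Target genes were split. Id1, an inhibitor of basic helix-loop-helix factors and a direct BMP target, had 130.5 and 182 CPM in Mmp3-positive libraries, against 123 and 94.0 CPM in Mmp3-negative libraries. Its groups did not overlap in CPM or in TPM, and its log2 fold change was 0.52 with a standard error of 0.27 (edgeR adjusted p = 0.7241). Id3, the most abundant Id gene per length, overlapped at 369.8 and 425 CPM in Mmp3-positive libraries, against 363 and 478 CPM in Mmp3-negative libraries (log2 fold change -0.08 ± 0.20). Tgfbi, a matrix protein first found as a TGF-beta-induced gene, overlapped at 87.4 and 98.7 CPM in Mmp3-positive libraries, against 68.2 and 117 CPM in Mmp3-negative libraries. In TPM it was lower without overlap, at 45.7 and 45.3 TPM in Mmp3-positive libraries, against 49.8 and 82.4 TPM in Mmp3-negative libraries. The coding model Tgfbi-201 alone overlapped, at 43.9 and 44.5 TPM in Mmp3-positive libraries, against 12.0 and 55.5 TPM in Mmp3-negative libraries. Id2 had 18.9 and 10.1 CPM in Mmp3-positive libraries, against 9.60 and 17.9 CPM in Mmp3-negative libraries, with no order between the groups. Id4 had 6.74 and 0.46 CPM in Mmp3-positive libraries, against 6.74 and 9.86 CPM in Mmp3-negative libraries, and the libraries of replicate 1 were equal to 3 digits although the rule counts the gene as lower without overlap. Its log2 fold change of -1.21 was -4.16 without Mmp3-positive replicate 1 and -0.31 without Mmp3-positive replicate 2.

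Several of these gene totals were made up largely of transcript models that are not annotated as protein-coding. For Tgfbr3, the share of counts on coding models was 9.12% and 10.3% in Mmp3-positive libraries, against 8.89% and 21.2% in Mmp3-negative libraries, and a retained-intron model (Tgfbr3-204) and a processed transcript (Tgfbr3-203) held most of the rest. The coding model Tgfbr3-202 had 0.119 and 0 estimated counts in Mmp3-positive libraries, against 259 and 269 in Mmp3-negative libraries. For Smad4, coding models held 64.5% and 49.8% in Mmp3-positive libraries and 100% in both Mmp3-negative libraries. Its processed transcript Smad4-203 had 309.7 and 165 estimated counts in Mmp3-positive libraries, against 0 in both Mmp3-negative libraries. The processed transcript Smad4-204 had 112 and 345 estimated counts in Mmp3-positive libraries, against 0 in both Mmp3-negative libraries. The Smad4 log2 fold change was 0.74 over all models and -0.10 over coding models. Smad4 in TPM came to 124 and 119 in Mmp3-positive libraries, against 16.0 and 13.4 in Mmp3-negative libraries. Of the TPM in Mmp3-positive libraries, Smad4-203 (430 bases) held 78.8 and 36.9, and Smad4-204 (487 bases) held 23.6 and 63.5.

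The share on coding models also varied between replicates. For Bmp1 it was 33.7% and 21.7% in Mmp3-positive libraries, against 9.39% and 27.6% in Mmp3-negative libraries, with a model marked for nonsense-mediated decay (Bmp1-205) at the greatest share of counts in each library. For Smad1 it was 7.89% and 83.9% in Mmp3-positive libraries, against 39.4% and 10.7% in Mmp3-negative libraries. The Smad1 log2 fold change was 0.33 over coding models, opposite in sign to the value over all models. Over all genes, protein-coding transcripts held 78.9% and 77.0% of the counts in Mmp3-positive libraries, against 72.7% and 75.8% in Mmp3-negative libraries. kallisto divides reads among overlapping models, so these shares are estimates.

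**Figure D4:**
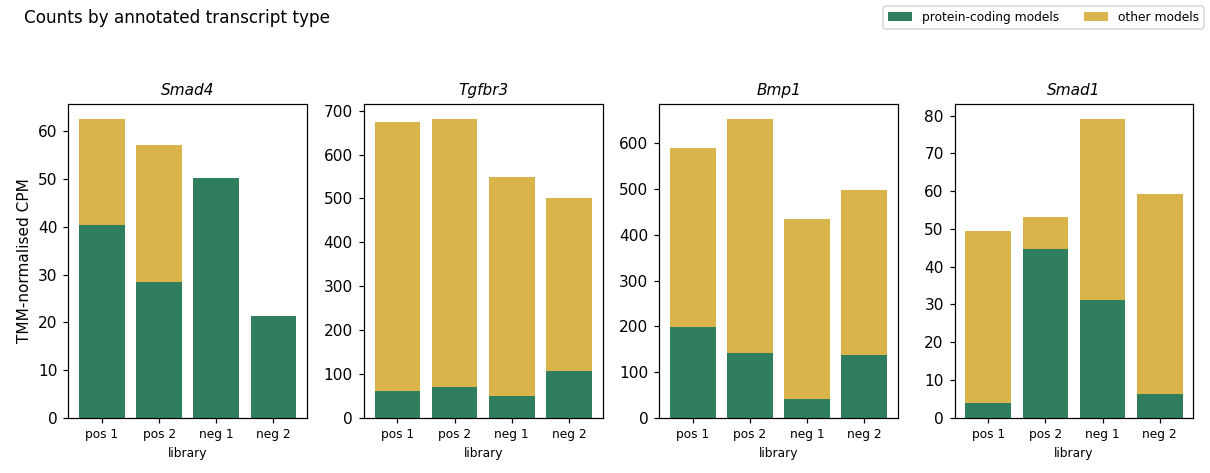
TMM-normalised CPM of Smad4, Tgfbr3, Bmp1 and Smad1 in each library (pos, Mmp3-positive; neg, Mmp3-negative; replicates 1 and 2), stacked by counts on protein-coding models (green) and on other models (yellow). Other models hold most of Tgfbr3 and Bmp1 in all libraries, are absent from Smad4 in both Mmp3-negative libraries, and change share between replicates for Smad1.

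A list of 82 other genes of the pathway, which holds further ligands, receptors, matrix regulators, activators of latent TGF-beta, Smad regulators and targets, was described in the same way. Of these, 81 were found and 64 tested, with a median log2 fold change of 0.16. None of the 64 passed the edgeR threshold, with a smallest adjusted p of 0.4801. DESeq2 called 7 higher (Bgn, Ccn1, Cdkn2b, Itgav, Neo1, Snai2 and Thbs1), or 10.9%, and 1 lower (Gdf15), or 1.56%, beside 5.46% and 4.18% of all genes. In CPM 21 were higher without overlap (32.8%) and 10 lower (15.6%), beside 22.5% and 17.3% of all genes.

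Of the larger differences on that list, Cdkn2b, a cell cycle inhibitor induced by TGF-beta, had 11.4 and 12.9 CPM in Mmp3-positive libraries, against 0.108 and 0 CPM in Mmp3-negative libraries. Those levels rest on 216 and 254 counts in Mmp3-positive libraries, against 2 and 0 counts in Mmp3-negative libraries, a ratio of 218 with a 95% exact interval from 60.1 to 1807 that covers counting error only. Snai2, a transcription factor linked to the mesenchymal state, had 138 and 29 counts in Mmp3-positive libraries, against 1 and 0 counts in Mmp3-negative libraries, a ratio of 155 with an interval from 27.5 to 6161. Zfyve16, an endosomal FYVE-domain protein that binds Smads, had 16.6 and 16.4 CPM in Mmp3-positive libraries, against 5.66 and 2.48 CPM in Mmp3-negative libraries (log2 fold change 2.02 ± 1.14, edgeR adjusted p = 0.7853). All 3 genes were scarce in both groups.

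On the lower side of the list, Msx1, a homeobox gene induced by BMPs, had 4.74 and 3.56 CPM in Mmp3-positive libraries, against 8.58 and 28.3 CPM in Mmp3-negative libraries (log2 fold change -2.15 ± 1.15). Nrros, which presents latent TGF-beta on macrophages and microglia, had 4.11 and 6.87 CPM in Mmp3-positive libraries, against 11.4 and 24.3 CPM in Mmp3-negative libraries, in the direction of the macrophage and leukocyte markers given above, and their part in it was not tested. Pcsk6, a proprotein convertase, had 9.84 and 19.0 CPM in Mmp3-positive libraries, against 19.9 and 62.9 CPM in Mmp3-negative libraries. In each case the Mmp3-negative replicates differed by more than the gap between the nearest libraries of the groups.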

How the data were processed

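The authors quantified reads with kallisto 0.45.0, with GRCm38 as the genome build, per the submitters' processing notes. Each library has its own deposited table of 115270 transcripts, with estimated counts, TPM and effective lengths per the file headers. The transcript set and strand setting are not given in the sources used here. Transcripts were matched by identifier without version to GENCODE M21, with 113580 matches in 35580 genes, and unmatched ones held 0.729% to 2.08% of the counts. The counts of a gene's transcripts were added up and then rounded to whole numbers. edgeR 4.0.16 in R 4.3.3 was run with filterByExpr at a minimum count of 10, TMM scaling, the quasi-likelihood test (two-sided, 2 residual degrees of freedom) and Benjamini-Hochberg adjustment over all genes, with a threshold of 0.05. A standard error is the absolute log2 fold change divided by the root of its F statistic. The fit was tested on simulated data. "No overlap" means that both libraries of a group lie above both of the other. Sums and plots were made in Python 3.11.15 (pandas 2.3.3, matplotlib 3.10.9).

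Named genes were the 3 members of highest mean CPM in each class, and members with a mean of at least 2 CPM, no overlap and a fitted change of at least 2-fold. From the list of other pathway genes, up to 3 in each direction were named by the second criterion. Other members are given so that all 48 are accounted for, and other genes named were chosen after their values were seen. The members and lists were chosen with earlier results of these data known. Replicates 1 and 2 are Set1 and Set2 of the sample titles, and each set holds a library of each group. The labels do not say what a set is. Deviations of same-numbered libraries had a correlation of 0.0242 over all genes tested, which cannot settle whether the sets are pairs. The main test did not pair them, and a block for the set was an alternative. The 11 alternatives changed the scaling (DESeq2 size factors), the filter (none), the test (the Wald test of DESeq2 1.42.0), the design (a replicate block), the offset (transcript length), the unit (limma 3.58.1 on log2(TPM + 1)) or the libraries (each left out in turn). Counting protein-coding transcripts only was chosen after seeing the data.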

Additional observations from a re-analysis of the deposited data

How the results depend on the processing

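The number of libraries, 2 in each group, limits every test here, and precision is lowest for genes under 10 CPM. Of the 11 alternatives, DESeq2's Wald test alone put pathway genes past the threshold, 2 higher and 1 lower. Of 330 values of named members under the alternatives, 290 kept their direction and side of the threshold, 3 newly passed it, all with DESeq2, and 37 turned direction. The median of the TGF-beta ligands stayed below 0 in all 12 settings (-1.19 to -0.38) and those of the TGF-beta receptors (0.21 to 0.65) and of the inhibitory Smads and co-repressors (0.096 to 0.802) above 0. The highest value of both came with limma, where the median of all genes was 0.306. Without Mmp3-negative replicate 1 the median of the inhibitory Smads and co-repressors was 0.138, below the 0.172 of all genes. The cause of the differences between settings was not tested.

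Over all genes, 4 were higher and 23 lower without a count filter, and 775 higher and 593 lower with DESeq2. With the replicate block 1 was higher and 4 lower, and the block changed no call of a pathway gene (median log2 fold change of the pathway genes 0.113, all genes 0.119). With the length offset 1 was higher and 0 lower, with limma on the TPM scale 0 higher and 0 lower, and over protein-coding transcripts 1 and 0. Leaving out 1 library gave 1 to 237 higher and 1 to 116 lower, with 234 and 98 without Mmp3-negative replicate 1 and 237 and 116 without its replicate 2. The lone library of a group is then taken to vary as the other pair does. The median of the pathway genes was 0.233 with limma, where the median of all genes moved to 0.306, and ran from 0.010 to 0.164 with 1 library left out.

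Log2 fold changes that turned direction were those of Bmpr2 (-0.008), Ski (-0.016) and Tgfbi (-0.037) with DESeq2's scaling or test. With the length offset they were Ltbp1 (0.23), Fstl1 (-0.19), Bmpr2 (-0.021), Acvr1 (-0.22) and Tgfbi (-0.74). With limma they were Ltbp1 (0.455), Ltbp4 (0.006), Inhbb (0.18), Id3 (0.065) and Tgfbi (-0.48), against the median of all genes given above. Over coding transcripts they were Tgfbr3 (-0.27), Smad1 (0.33), Smad4 (-0.10) and Ski (-0.20). With 1 library left out, the ranges of those that turned were Ltbp1 -0.27 to 0.145, Inhbb -0.34 to 0.22, Fstl1 -0.092 to 0.31, Eng -0.51 to 0.078, Acvr1 -0.45 to 1.54, Ski -0.25 to 0.37, Tgfbi -0.33 to 0.45, Acvr1b -0.15 to 0.66, Id3 -0.27 to 0.13, Inhba -0.011 to 5.0, Bmpr2 -0.125 to 0.22, Smad3 -0.18 to 0.060 and Smad6 -0.13 to 0.46. By library, 7 turned without Mmp3-negative replicate 1, 4 without its replicate 2, 2 without Mmp3-positive replicate 1 and 4 without its replicate 2. Tgfb3, Tgfbr1, Smad4, Smad9 and Id4 kept their direction, but their fold, taken out of the log scale, moved by over 1.5 times when 1 library was left out.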
